A study of Mus musculus with 8 samples.

Results

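Genomic imprinting leaves only the maternal or the paternal copy of a gene active, and the 35 imprinted genes described here are textbook examples from 16 clusters of the mouse genome. The 3 others, Zfp57, Trim28 and Zfp445, encode proteins that keep imprints in place. All 38 were chosen by symbol, by a rule that used no measured value, though with earlier results of these data known, from the 52636 gene identifiers counted in every RNA library, and each symbol matched 1 Ensembl identifier. By their usual expressed copy, 20 are paternal, 7 maternal and 8 biallelic or dependent on tissue. The counts do not separate the parental copies, and neither DNA methylation nor allelic expression was analysed here.

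The cells were E14 mouse embryonic stem cells, either wild type (WT) or with a knockout of KLF4 (KO), a zinc finger protein that helps hold the naive pluripotent state. Both genotypes were grown on gelatin in serum with LIF. The labels' growth notes add PD0325901, a MEK inhibitor, and CHIR99021, a GSK3 inhibitor, and their treatment notes do not name these inhibitors. RNA was sequenced from 2 libraries of each genotype, called WT 1, WT 2, KO B and KO F after the labels and file columns, with 8287497 to 9762190 reads counted on genes. RNA polymerase II (Pol II) HiChIP, which captures pairs of genomic sites that lie close together and carry Pol II, was deposited as 1 pooled contact list per genotype. The sources used here do not say whether KO B and KO F come from 1 clone. For Klf4 itself, WT 1 held 2882 counts, WT 2 held 2421, and both KO libraries held 0. The 6 embryonic stem cell markers (Pou5f1, Sox2, Nanog, Esrrb, Zfp42 and Sall4) summed to 4037 to 4691 CPM (counts scaled to the library's normalised total) in the 4 libraries, and none of them was called changed.

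Imprints are set in the germline as DNA methylation of control regions on 1 parental copy. After fertilisation most methylation is erased, and ZFP57, a KRAB zinc finger protein, protects imprints by binding a methylated hexamer in the control regions and recruiting TRIM28, a scaffold for histone and DNA methylation enzymes. ZFP445 is a second KRAB zinc finger protein with the same task. Embryonic stem cells in culture are known to gain and lose imprints, which is one reason why these genes are watched in such cells.

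The promoter windows of 5 members are shown because their RNA changed or because Pol II contacts differed there, and because 3 of them (Plagl1, Mest and Snrpn) start at or near a control region that is methylated on the maternal copy. Each window runs from 250 bases before to 50 bases after an annotated start, 5′ to 3′ along the gene, from RefSeq (GRCm38.p6, the same coordinates as mm10). Capitals mark the ZFP57 hexamer, TGCCGC on either strand, which reads GCGGCA on the other. The windows are chr10:13090582-13090881 (plus strand) for Plagl1, chr6:30737800-30738099 (plus) for Mest, chr7:60005150-60005449 (minus) for Snrpn, chr11:12037371-12037670 (minus) for Grb10 and chr7:143052500-143052799 (plus) for Cd81.
Plagl1: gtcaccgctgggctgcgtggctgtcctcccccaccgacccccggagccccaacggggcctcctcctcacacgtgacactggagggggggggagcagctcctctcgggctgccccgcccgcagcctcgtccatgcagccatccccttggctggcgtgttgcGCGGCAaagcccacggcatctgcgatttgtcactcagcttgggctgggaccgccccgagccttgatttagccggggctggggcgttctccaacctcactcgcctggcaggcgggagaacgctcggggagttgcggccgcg
Mest: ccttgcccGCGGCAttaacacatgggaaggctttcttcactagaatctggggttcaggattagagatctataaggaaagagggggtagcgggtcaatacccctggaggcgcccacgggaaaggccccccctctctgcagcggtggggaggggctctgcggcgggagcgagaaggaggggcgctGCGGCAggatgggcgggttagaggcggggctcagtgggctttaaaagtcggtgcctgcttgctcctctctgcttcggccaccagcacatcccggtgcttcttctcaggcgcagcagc
Snrpn: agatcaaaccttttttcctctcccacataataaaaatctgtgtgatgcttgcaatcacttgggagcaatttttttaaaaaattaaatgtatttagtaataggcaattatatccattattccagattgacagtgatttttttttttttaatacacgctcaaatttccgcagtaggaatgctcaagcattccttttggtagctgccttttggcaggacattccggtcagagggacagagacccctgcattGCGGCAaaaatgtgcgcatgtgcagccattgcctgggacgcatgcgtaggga
Grb10: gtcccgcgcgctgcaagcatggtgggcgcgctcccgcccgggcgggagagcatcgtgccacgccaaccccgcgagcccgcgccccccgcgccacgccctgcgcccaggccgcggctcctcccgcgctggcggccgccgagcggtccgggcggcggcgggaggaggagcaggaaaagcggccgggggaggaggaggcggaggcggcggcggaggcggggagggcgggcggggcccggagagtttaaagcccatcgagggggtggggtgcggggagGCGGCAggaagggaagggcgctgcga
Cd81: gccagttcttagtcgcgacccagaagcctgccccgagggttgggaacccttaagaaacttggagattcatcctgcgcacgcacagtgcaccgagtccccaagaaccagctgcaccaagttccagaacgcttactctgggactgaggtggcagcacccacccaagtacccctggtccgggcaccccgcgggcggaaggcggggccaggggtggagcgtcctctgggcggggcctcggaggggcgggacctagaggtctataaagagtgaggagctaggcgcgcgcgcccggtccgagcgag
Where a gene has several windows, the one with the most hexamers was printed, so finding a hexamer there was partly fixed by that choice. The Plagl1 window holds 1 hexamer, that of Mest 2 and that of Snrpn 1 beside the start site. That of Grb10 holds 1 just downstream of its start, and that of Cd81 none. The Mest window at chr6:30733256-30733555, the other Snrpn windows and the Grb10 window at chr11:12027922-12028221 hold 0. CpG sites number 26 in the Plagl1 window, 17 in that of Mest, 7 in that of Snrpn, 45 in that of Grb10 and 23 in that of Cd81.

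Over all 43 RefSeq windows of the imprinted members, 12 windows from 11 genes (27.9%) held the hexamer, against 11.6% of the 32851 windows of 27025 genes. These windows are not independent, since 2 windows of Mest overlap and Snrpn and Snurf share one. They are also richer in CpG, with a median of 13 CpG sites against 7 over all windows, and the hexamer itself holds a CpG. The core of the sites that KLF factors bind, CACCC on either strand, was present in 30 of the 43 windows (69.8%) against 57.5% of all windows. The printed window of Cd81 held 4 such cores, that of Grb10 2, and those of Plagl1, Mest and Snrpn none. Of the windows not printed, that of Grb10 at chr11:12027922-12028221 held 3 cores and that of Snrpn at chr7:60047929-60048228 held 1. The remaining windows of Mest and Snrpn held 0. A match to the core or to the hexamer is a description of the sequence, not a measured site.

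Of the 38 genes, 31 had enough reads to be tested. Among these, H19, Mest, Peg10 and Snrpn rose in the KO libraries, and Plagl1 and Cd81 fell. Changed genes were thus 6 of 31 (19.4%) by edgeR's quasi-likelihood test at a false discovery rate (FDR, Benjamini-Hochberg over all genes tested) under 0.05, where 8.30% of all 15517 genes tested were called. Higher genes made up 4 of 31 (12.9%) against 2.96% of all genes, and lower genes 2 of 31 (6.45%) against 5.34%. The median log2 fold change of the 31 genes, KO over WT, was -0.02, close to the -0.0015 of all genes, and 15 values were positive and 16 negative. The called genes thus lay on both sides of a list whose middle was close to that of all genes. They lay in 6 of the 16 clusters, 1 in each. In a fit with no expression filter only 1 gene of the whole table was called higher, and none of the 6 members kept its call.

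**Figure D1:**
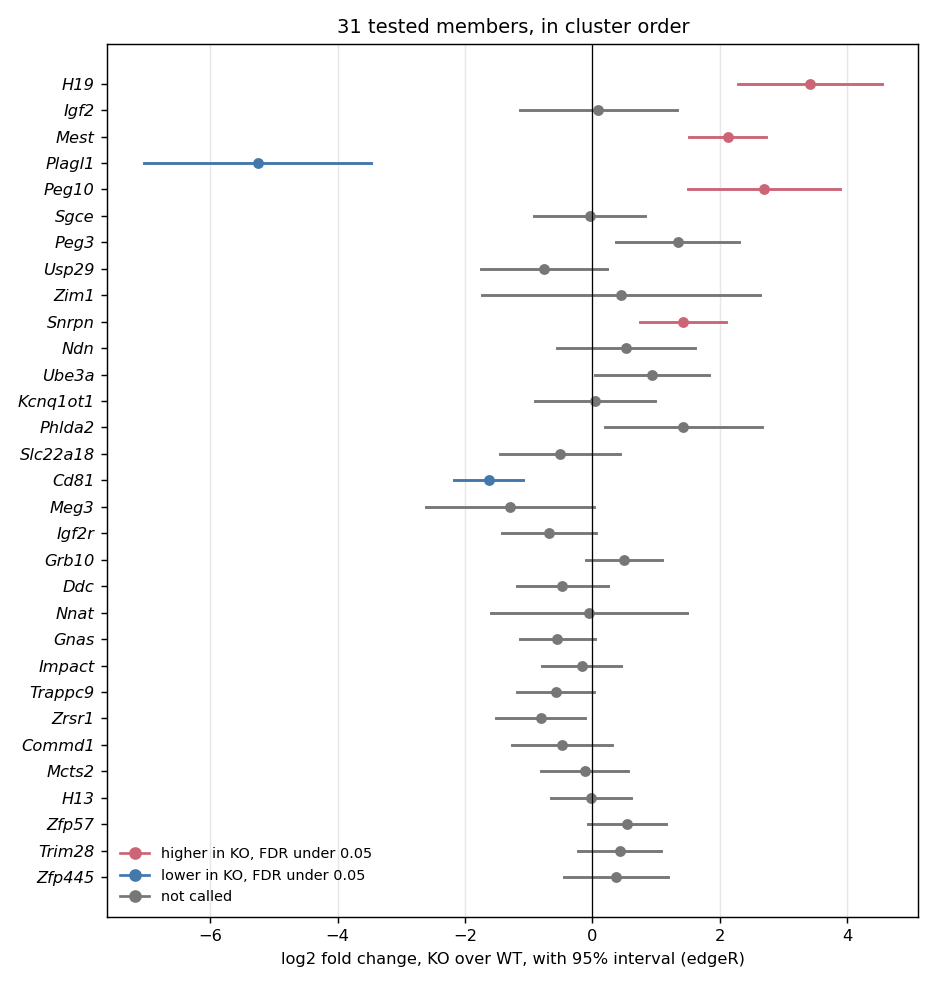
Log2 fold change (KO over WT, horizontal axis, edgeR) of the 31 tested members with 95% intervals from 2 libraries a genotype, in cluster order from top to bottom. The 4 red genes lie at 1.42 or more and the 2 blue genes at -1.63 or less, while most grey intervals include 0.

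On the CPM scale both KO libraries lay above both WT libraries for 10 of the 31 genes (32.3%, against 26.0% of all genes tested). Both lay below them for 11 (35.5%, against 27.5%), and the genotypes overlapped for the other 10. An unadjusted p under 0.05 was reached by 10 members (32.3%, against 24.4% of all genes), so that Peg3, Phlda2, Ube3a and Zrsr1 stood between that level and the FDR threshold. By expressed copy, 3 of the 14 tested paternal genes rose and 1 fell (median log2 fold change -0.0012). Of the 6 tested maternal genes 1 rose and none fell (median -0.03), and of the 8 tissue-dependent genes none rose and 1 fell (median -0.47). The called paternal genes therefore lay in both directions.

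H19 (ENSMUSG00000000031, chr7:142575530-142578146), a maternally expressed long non-coding RNA, had 21 and 49 counts in WT 1 and WT 2 and 434 and 243 in KO B and KO F. Both KO libraries lay far above both WT libraries. The mean level was 3.78 ± 2.19 against 40.4 ± 16.4 CPM (WT against KO, SD, n = 2). The log2 fold change was 3.41 ± 0.49 (SE, edgeR FDR 0.0077). Igf2, the paternally expressed growth factor gene that shares the H19 control region and enhancers, had 28 and 21 counts in WT and 31 and 16 in KO. Its genotypes overlapped (log2 fold change 0.09, 95% interval -1.14 to 1.33), so the rise of H19 came without a called change of Igf2 in either direction. The difference between the fold changes of these 2 genes was not tested.

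Mest (ENSMUSG00000051855, chr6:30733506-30748466), a paternally expressed gene for a protein of the hydrolase fold, had 187 and 154 counts in WT and 659 and 680 in KO. The 2 libraries of each genotype lay close together and the genotypes far apart, at 18.3 ± 2.21 against 79.7 ± 1.14 CPM (SD, n = 2). The log2 fold change was 2.12 ± 0.26 (SE, edgeR FDR 0.0043). Copg2, which overlaps the end of Mest and whose reads cannot be told apart there without a stated strand setting, had a log2 fold change of 0.07 and was not called.

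Peg10 (ENSMUSG00000092035, chr6:4747306-4760517), a paternally expressed gene derived from a retrotransposon and needed for the placenta, had 376 and 162 counts in WT and 869 and 2273 in KO. The libraries differed within each genotype, with KO F at 269 CPM and KO B at 104 CPM, and yet the genotypes did not overlap. The log2 fold change was 2.70 ± 0.52 (SE, edgeR FDR 0.020). Sgce, a sarcoglycan gene that starts next to Peg10 on the other strand and is expressed from the same copy, had 63 and 56 counts in WT and 54 and 50 in KO. Its log2 fold change of -0.05 (95% interval -0.92 to 0.83) shows levels that overlapped. Neighbours that share a control region therefore had different values here too, and that difference was not tested.

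Snrpn (ENSMUSG00000102252, chr7:59982495-60450177), a paternally expressed gene for a protein of the spliceosome, had 101 and 117 counts in WT and 256 and 273 in KO. All KO values lay above all WT values, at 31.5 ± 1.18 against 11.7 ± 1.41 CPM (SD, n = 2). The log2 fold change was 1.42 ± 0.29 (SE, edgeR FDR 0.024), and without KO F the FDR was 0.0615. Snurf is read from the same transcript and was listed at 0 counts in all libraries, which says nothing about it where its reads overlap Snrpn. Reads that fell on more than 1 gene were set aside by the authors as ambiguous and made up 0.959% to 1.43% of the records. Snhg14 also overlaps Snrpn and Ube3a, and without a stated strand setting some reads counted for these genes may come from Snhg14.

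Plagl1 (ENSMUSG00000019817, chr10:13090832-13131694), a paternally expressed zinc finger gene known as a node of a network of imprinted genes, had 478 and 210 counts in WT and 1 and 15 in KO. It was near silence in both KO libraries, at 0.12 and 1.78 CPM, and the WT libraries themselves differed, at 50.8 and 22.8 CPM. The log2 fold change was -5.25 ± 0.78 (SE, edgeR FDR 0.0083), the largest fall among the members. With counts this low in KO the size is loosely held, and leaving out single libraries or changing the fit gave values from -8.10 to -4.37. The 9 tested genes within 1 Mb of Plagl1 had a median log2 fold change of -0.02, and 1 of them was called lower.

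Cd81 (ENSMUSG00000037706, chr7:143052750-143067930), a tetraspanin membrane protein gene in the Kcnq1 cluster with imprinting that depends on tissue, had 3362 and 3695 counts in WT and 1069 and 989 in KO. The genotypes were far apart and each was narrow, at 380 ± 31.6 against 123 ± 7.71 CPM (SD, n = 2). The log2 fold change was -1.63 ± 0.24 (SE, edgeR FDR 0.0080), and without KO F the FDR was 0.0605. Tspan32, a tetraspanin gene beside it, had a log2 fold change of -1.19 and was not called (edgeR FDR 0.21), and Tssc4 on the other side had -0.36 (FDR 0.54).

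**Figure D2:**
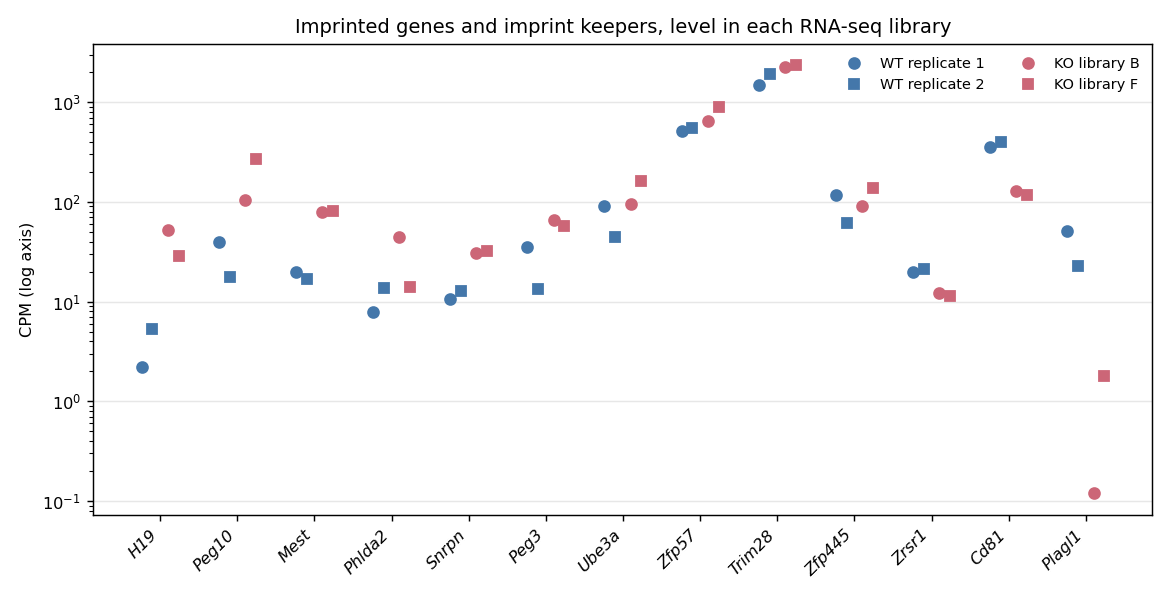
Level of the members past a threshold and of the 3 imprint keepers in each RNA-seq library (CPM, log axis), with WT libraries in blue and KO libraries in red. H19, Peg10, Mest and Snrpn have both red points above both blue points, and Plagl1 and Cd81 both below.

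The 4 members that reached an unadjusted p under 0.05 but were not called are given by their values. Peg3, a paternally expressed zinc finger gene, had 331 and 123 counts in WT and 543 and 487 in KO (log2 fold change 1.34 ± 0.42, edgeR FDR 0.093). Phlda2, a maternally expressed restrainer of placental growth, had 74 and 127 in WT and 369 and 119 in KO (1.43 ± 0.54, FDR 0.15). On the CPM scale KO F, at 14.1, was barely above WT 2, at 13.8, and KO B stood alone at 44.2. Ube3a, a ubiquitin ligase gene imprinted in neurons, had 857 and 409 in WT and 790 and 1382 in KO (0.93 ± 0.39, FDR 0.19). Zrsr1, a paternally expressed splicing factor gene inside Commd1, had 186 and 197 in WT and 102 and 95 in KO (-0.81 ± 0.30, FDR 0.15). The log2 fold changes of all but Zrsr1 (-0.87 to -0.74) moved widely when single libraries were left out. Peg3 ranged from 0.77 without WT 2 to 2.19 without WT 1. Phlda2 ranged from 0.38 without KO B to 2.035 without KO F, and Ube3a from 0.47 without WT 2 to 1.53 without WT 1. Such fits leave 1 library in a genotype, and the number of genes called over the whole table moved with them. DESeq2 called Peg3 with all libraries (adjusted p 0.0196). WT 1 was higher than WT 2 for Peg3, Ube3a and Zfp445, and lower for Phlda2.

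The remaining tested imprinted members had log2 fold changes from -1.29 to 0.53. Grb10, a growth-restraining adaptor gene with 2128 and 1445 counts in WT and 2236 and 2320 in KO, had a log2 fold change of 0.50 (95% interval -0.10 to 1.10). Ddc, the neighbouring dopa decarboxylase gene, had -0.48 (-1.19 to 0.24), with 220 and 275 counts in WT and 134 and 188 in KO. Gnas, which encodes a G protein subunit, had -0.55 (-1.13 to 0.04) and Trappc9, a vesicle tethering gene, -0.57 (-1.18 to 0.03). Igf2r, the receptor that removes IGF2 from the cell surface, had 1711 and 893 counts in WT and 675 and 788 in KO. Its log2 fold change was -0.68 (edgeR FDR 0.24), with -1.09 without WT 2 and -0.16 without WT 1. The intervals of all 5 genes reach past a change of 1 log2 unit, so the missing calls do not show equal levels.

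Impact, a regulator of translation, and Mcts2 and H13, a retrogene and its host, were among the least changed, with log2 fold changes of -0.17, -0.12 and -0.02. Commd1, the host of Zrsr1, had -0.47, and Usp29, which shares a control region with Peg3, had -0.76 with both KO libraries below both WT libraries. Kcnq1ot1, the non-coding RNA that silences its cluster, had 85 and 56 counts in WT and 52 and 79 in KO (0.04, 95% interval -0.90 to 0.99), with overlapping libraries. Slc22a18, a transporter gene of that cluster, had -0.51, and Ndn, a gene of the Snrpn cluster, 0.53. Zim1 and Nnat had no more than 23 counts in any library, and their values of 0.45 and -0.05 changed sign when single libraries were left out. Nnat lies inside Blcap, Kcnq1ot1 inside Kcnq1, Zrsr1 inside Commd1 and Mcts2 inside H13. Without a stated strand setting, some reads counted for these genes may come from the gene around them.

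The 7 untested members were at or near 0. Snurf, Dlk1 and Rtl1 had 0 counts in all libraries, Peg13 1 count in KO B, and Magel2 2 to 7. Rian had 10, 6, 5 and 0 counts in WT 1, WT 2, KO B and KO F. Airn, the non-coding RNA that silences Igf2r, had 4 and 5 counts in WT and 0 in both KO libraries. Its WT level of 0.484 CPM was 2.71-fold above the KO limit of 3 counts over the genotype (0.179 CPM, counting error only). That ratio does not include the counting error of the 9 WT counts, so the true fold may be smaller. A count of 0 over a genotype allows up to 0.161 CPM in WT and 0.179 in KO. Airn overlaps Igf2r and Rian overlaps Rtl1, so the few reads of these genes may be shared.

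Zfp57, Trim28 and Zfp445, the imprint keepers, were not called and had positive values. Zfp57 had 4816 and 5015 counts in WT and 5430 and 7478 in KO, at 529 ± 23.9 against 768 ± 166 CPM (SD, n = 2, log2 fold change 0.54, 95% interval -0.08 to 1.15, edgeR FDR 0.26). Trim28 had 13915 and 17713 counts in WT and 18815 and 19735 in KO (0.43, -0.22 to 1.08, FDR 0.40). Zfp445 had 1104 and 559 in WT and 753 and 1176 in KO (0.37, -0.45 to 1.18, FDR 0.58). The genotypes did not overlap on the CPM scale for Zfp57 and Trim28, and they overlapped for Zfp445. The log2 fold change of Zfp445 was 0.91 without WT 1 and -0.06 without WT 2. The upper ends of the 3 intervals leave room for an increase of about 1 log2 unit.

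A list of 27 partners in imprint maintenance was chosen with earlier results of these data known. It also holds genes outside maintenance itself, such as the de novo methyltransferase genes and Tet1, Tet2 and Tet3. All 27 were tested, and 4 were higher (14.8%, against 2.96% of all genes) and none lower (against 5.34%). Given how the list was chosen, these shares are a description only. The median log2 fold change was 0.51, against -0.0015 over all genes. The de novo methyltransferase gene Dnmt3a had 521 and 371 counts in WT and 1836 and 2462 in KO (2.42 ± 0.28, edgeR FDR 0.0038), and Dnmt3b 720 and 519 against 1879 and 1936 (1.77 ± 0.26, FDR 0.0077). Their cofactor Dnmt3l had 591 and 797 against 4501 and 5165 (2.94 ± 0.28, FDR 0.0023). Ctcfl, a germline relative of CTCF, had 11 and 6 against 41 and 40 (2.39 ± 0.54, FDR 0.033). For all 4 genes both KO libraries lay above both WT libraries. Uhrf1, which brings DNMT1 to replicated DNA, had -0.01, and Dnmt1 itself, the enzyme that copies methylation, had 0.33 (FDR 0.46), both uncalled.

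Further imprinted genes outside the 38 were taken from a list of 42, also chosen with earlier results of these data known, of which 29 were tested. There 1 was higher (3.45%, against 2.96% of all genes) and 3 were lower (10.3%, against 5.34%), with a median log2 fold change of 0.01 against -0.0015. Cdkn1c, the cell cycle inhibitor gene of the Kcnq1 cluster, had 32 and 45 counts in WT and 401 and 166 in KO (3.03 ± 0.49, edgeR FDR 0.011). Dio3, a thyroid hormone deiodinase gene at the far end of the Dlk1 cluster, had 56 and 101 in WT and 1 and 4 in KO (-4.77 ± 0.70, FDR 0.0082). Cdkn1c stood at 3.4 and 4.9 CPM in WT 1 and WT 2 and at 48.0 and 19.7 in KO B and KO F, so its KO libraries also differed from each other. Dio3 is almost absent from KO. Zfp264, a zinc finger gene of the Peg3 region, had 302 and 255 in WT and 43 and 57 in KO (-2.33 ± 0.33, FDR 0.0073). Smoc1, a secreted matrix protein gene, had 338 and 341 in WT and 101 and 44 in KO (-2.08 ± 0.41, FDR 0.021). For each of these 4 genes the genotypes did not overlap on the CPM scale.

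Placed along their chromosomes, most of the genes taken from each domain were not called, and 1 domain held calls in both directions. From the domain between H19 and Nap1l4 (974 kb of chromosome 7) 11 genes were taken, not including Ins2 and Kcnq1, which had too few counts to be tested. Of the 11, H19 and Cdkn1c rose, Cd81 fell and 8 were not called (median 0.04). In the domain from Begain to Dio3 (1249 kb of chromosome 12), only Dio3 was called, lower. Both KO libraries lay below both WT libraries for 5 of 7 genes, 1 of them the untested Rian (10 and 6 counts in WT, 5 and 0 in KO). Dlk1 and Rtl1, untested at 0 counts, are also among the 7. Among all genes tested the share was 27.5%, which leaves out untested genes such as these. The median of the 4 tested genes was -1.20. Among those, Meg3, a maternally expressed non-coding RNA, had 19 and 22 counts in WT and 6 and 9 in KO (-1.29, FDR 0.21), and Mirg, a downstream microRNA host RNA, 231 and 346 against 104 and 139 (-1.10, FDR 0.084). In the Snrpn domain 5 of 7 genes had both KO libraries above both WT libraries on the CPM scale. Of these 5, Magel2 (2 and 6 counts in WT, 7 and 6 in KO) was not tested. Among all genes tested, which leaves out such genes, the share was 26.0%. The tested genes among the 5 ranged from Atp10a, with 9 and 1 counts in WT and 57 and 25 in KO (3.16, FDR 0.055), to Mkrn3 (0.57). Peg12 at the same end had both KO libraries below (-1.97, FDR 0.11). Of 4 genes taken from the Peg3 domain (Zim1, Peg3, Usp29 and Zim3) none was called, and Peg3 (1.34) and Zim3 (-1.38) lay on opposite sides. Zfp264 of the same region, which was called lower, is not among these 4 because the RefSeq table used here gave no position for it.

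**Figure D3:**
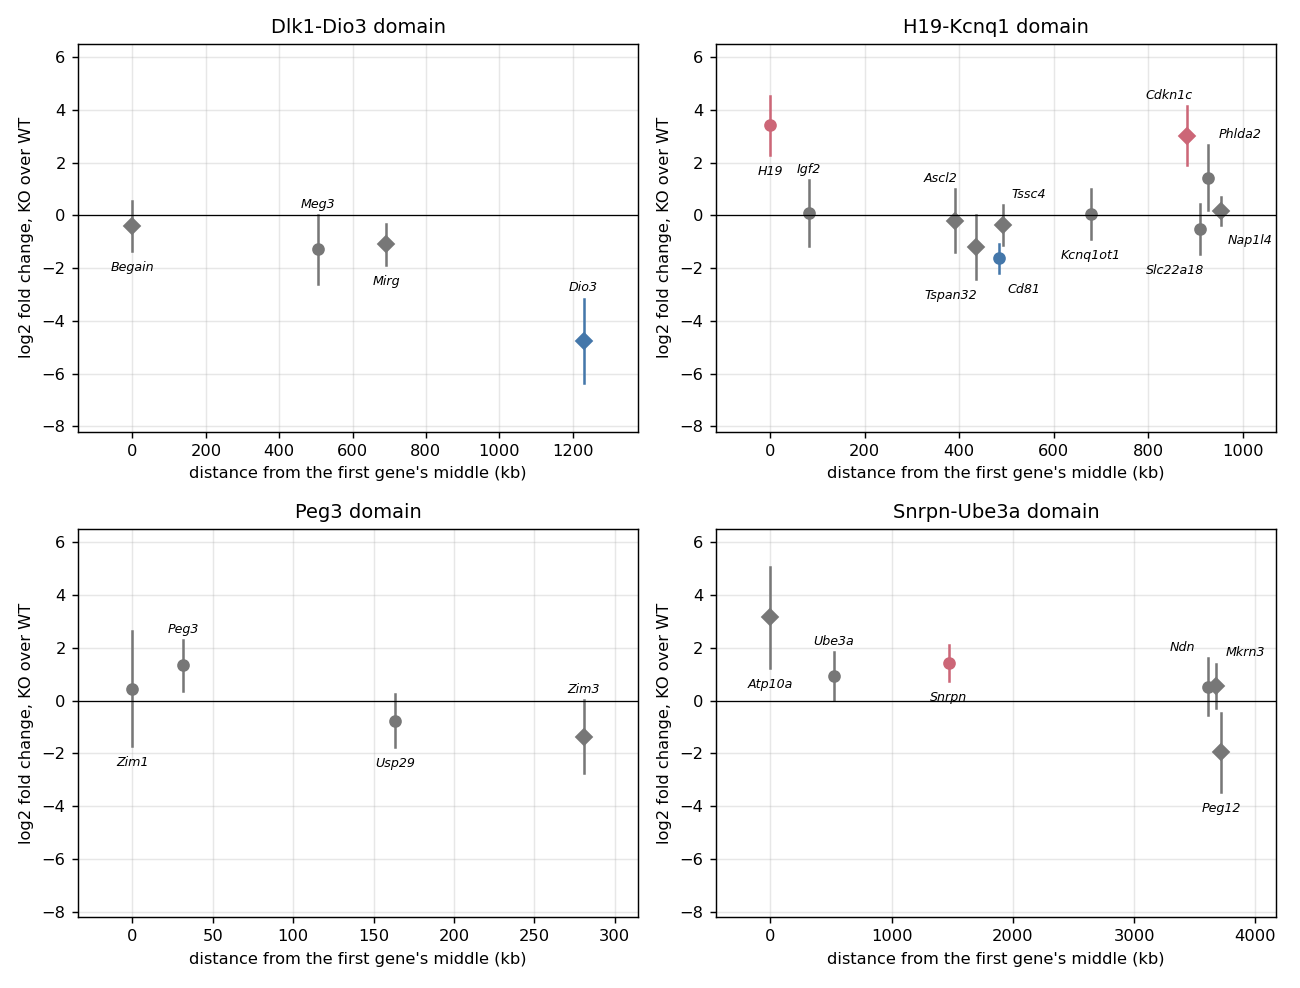
Log2 fold change (KO over WT, vertical axis, 95% interval) of tested genes along 4 imprinted domains, against the distance in kb from the middle of the first gene. Circles are members, diamonds other imprinted genes or neighbours, red genes were called higher and blue ones lower. H19 and Cdkn1c stand high and Cd81 low within 1 domain, and Dio3 stands lowest of all.

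Medians of the neighbours of called members are given as a description. Genes called for a change will mostly exceed such a median, so no comparison is drawn. Members were left out as neighbours, while other imprinted genes were kept, among them Tssc4 (-0.36) near H19 and Copg2 (0.07) near Mest. The tested genes within 1 Mb had a median log2 fold change of -0.36 around H19 (15 genes), 0.07 around Mest (13), 0.57 around Peg10 (6), -0.07 around Snrpn (3) and -0.20 around Cd81 (15). Whole chromosomes that carry members had medians from -0.11 (chromosome 7, 1153 genes) to 0.09.

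Some imprinted genes are abundant in differentiated cells, so markers of other cell types stand beside these results. In a bulk sample, fewer cells of a type and less RNA per cell cannot be told apart. The 10 fibroblast and feeder markers summed to 29.0 and 29.2 CPM in WT 1 and WT 2 and 27.2 and 20.6 in KO B and KO F, with Postn and Lum at 0 everywhere and none called. Pdgfrb was the most abundant of them, and without it the other 9 markers summed to 9.78 and 9.68 in WT and 16.2 and 13.3 in KO, so the order of the genotypes turned. The 10 trophoblast markers summed to 102 and 120 in WT and 156 and 82.7 in KO, with Tpbpa at 0, and Hand1 rose from 2 counts in each WT library to 20 and 12. The trophoblast sums overlapped between genotypes. The 10 primitive endoderm markers summed to 242 and 176 in WT and 52.6 and 74.7 in KO, with Afp at 0. Lama1, a laminin gene, fell from 2201 and 1531 counts in WT to 356 and 575 in KO and made up most of that sum. Without it the other 9 summed to 8.29 and 9.46 in WT and 9.94 and 6.63 in KO, which overlap. Single markers among them lay on both sides. Gata6 rose from 4 and 3 counts to 25 and 24, while Gata4 had 37 and 48 in WT and 17 and 4 in KO and was not called. The 10 neural progenitor markers summed to 54.2 and 59.3 in WT and 64.2 and 40.4 in KO, and these overlap. Without Tubb3, the most abundant, they summed to 36.4 and 40.8 in WT and 28.9 and 17.6 in KO. Pax6 rose from 1 and 0 counts in WT to 55 and 26 in KO and Map2 from 10 and 4 to 68 and 32, while Nes fell from 258 and 294 to 70 and 50. The 8 mesoderm markers summed to 9.48 to 15.3 in all libraries, where Hand1 rose and Gsc fell from 18 and 48 counts to 2 in each KO library. The sums without Pdgfrb, Lama1 and Tubb3 were chosen after seeing the data. The part of these markers in the results on imprinted genes was not tested.

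Contacts were read from the Pol II HiChIP lists, where each line gives a pair of anchors and its number of paired-end tags (PETs). The WT list held 16191 pairs between different anchors and 35189 PETs, including those within 1 anchor, and the KO list 104844 pairs and 401726 PETs. The anchors were called separately, with a median of 1999 bases in WT and 2932 in KO. With 1 pool a genotype there is no replicate check, so values are given as PETs per 100000 PETs of the pool with exact Poisson 95% intervals that cover counting error only. Of the 31 members with an annotated start in the promoter table, 12 (38.7%) had a contact at an anchor within 5 kb of a start in WT, against 25.0% of all genes. In KO it was 19 (61.3%), against 38.4% of all genes. Among members an anchor over the gene or 5 kb on either side was present for 17 of 38 in WT and 25 in KO, 8 of them in KO only, and for 13 in neither. Those 13 included H19, Igf2, Plagl1, Phlda2 and Meg3, so that H19 and Plagl1, the most changed members by RNA, had no anchor in either pool. The share over all genes was not counted for gene bodies. The KO list held 18293 anchors against 8373 in WT, so the counts over gene bodies are not read as a result about the members.

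Zfp57 and Trim28 had the most PETs of all members in both lists. Zfp57 had 27 PETs in WT and 1710 in KO, 76.7 (95% interval 50.6 to 112) against 426 (406 to 446) per 100000. In KO a single anchor of 48.3 kb (chr17:36966851-37015121) covered it, where WT had 2 anchors with 5.83 kb in all, and most of that stretch lies outside the WT anchors. Of the KO PETs, 1028 lay within this anchor and 682 joined it to other anchors, while in WT 0 lay within an anchor. By PETs at the start, with those within an anchor included, it ranked 10 of 27025 genes in KO and 581 in WT. Its KO partners with most PETs were an anchor at Mog (210 PETs, 37.6 kb away) and one at Znrd1 (74), and Gabbr1, with 62, was also a partner in WT. Trim28 had 85 PETs in WT and 864 in KO, 242 (193 to 299) against 215 (201 to 230) per 100000, with overlapping intervals. Zfp445 had 0 and 16 PETs.

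Ddc and Grb10, neighbours on chromosome 11 whose imprinting depends on the tissue, had more contacts in the KO list than in the WT list. Ddc had 1 PET in WT and 534 in KO, 2.84 (0.072 to 15.8) against 133 (122 to 145) per 100000, over 1.56 kb and 49.2 kb of anchors. Grb10 had 2 and 192 PETs, 5.68 (0.69 to 20.5) against 47.8 (41.3 to 55.1), over 2.31 and 15.3 kb of anchors. Of the KO PETs, 196 at Ddc and 21 at Grb10 lay within single anchors. The WT anchor of Grb10 (chr11:12035789-12038094) covers the promoter window printed above, and in KO no anchor lay within 5 kb of a Grb10 start. In KO 16 pairs with 100 PETs joined the 2 genes or their 5 kb flanks, over 41.2 to 163 kb, and in WT none did. They were the only pairs in either list whose anchors lie at different members with none in common. Pairs within H13 that also touch Mcts2, and within Commd1 that also touch Zrsr1, are left out of that count, since the smaller gene lies inside its host. The strongest, with 21 PETs, joined chr11:11818839-11838236 in Ddc to chr11:11971467-11973917 in Grb10, 144 kb apart. Of the 5 Ddc anchors in KO, 1 lies just outside the gene beyond its lower-coordinate end. Of the 4 Grb10 anchors in KO, 1 (chr11:11921618-11926013) also lies outside its gene, between Grb10 and Ddc. It takes part in the shortest joining pair (41.2 kb), so not all of the 16 pairs join the gene bodies themselves. By RNA neither gene was called, as given above.

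**Figure D4:**
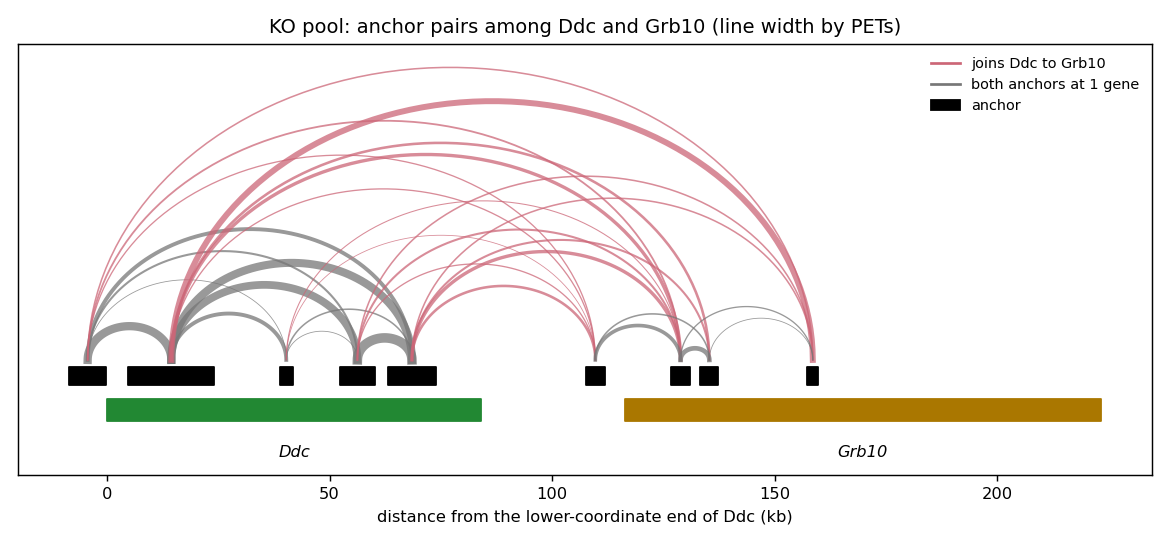
Anchors (black) and anchor pairs (arcs, width by PETs) at Ddc and Grb10 in the KO pool, against the distance in kb from the lower-coordinate end of Ddc. Red arcs are the 16 pairs that join the 2 genes or their 5 kb flanks. Grey arcs join anchors of 1 gene or its flanks, and the WT pool held no pair between anchors here.

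The other 6 of the 10 members with most PETs in KO had overlapping intervals. H13 had 15 PETs in WT and 283 in KO, 42.6 (23.9 to 70.3) against 70.5 (62.5 to 79.2) per 100000, and Mcts2 inside it 7 and 169, 19.9 (8.00 to 41.0) against 42.1 (36.0 to 48.9). Both had Bcl2l1 as a partner in both lists. Commd1 had 13 and 113 PETs, 36.9 (19.7 to 63.2) against 28.1 (23.2 to 33.8). Zrsr1, which shares the WT anchors of Commd1, had 79 PETs in KO (19.7, 15.6 to 24.5). Gnas had 9 and 60 PETs, 25.6 (11.7 to 48.6) against 14.9 (11.4 to 19.2), and met Ctsz in both lists.

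Cd81 had 18 PETs in WT and 188 in KO, 51.2 (30.3 to 80.8) against 46.8 (40.4 to 54.0) per 100000, over 6.92 and 15.9 kb of anchors. Its intervals overlapped although its RNA fell. The pair between the 2 anchors over Cd81 and its flanks had the most PETs in both lists, 3 in WT and 24 in KO. Among partners outside Cd81 and its flanks, an anchor at Tspan32 led in both lists. Mest, whose RNA rose, had 7 and 8 PETs, 19.9 (8.00 to 41.0) against 1.99 (0.86 to 3.92), over 1.30 and 2.12 kb of anchors, and its intervals did not overlap. Peg10, whose RNA rose too, had 2 and 5 PETs, 5.68 (0.69 to 20.5) against 1.25 (0.40 to 2.91). Snrpn had none in WT and 5 in KO, 4 of them within 1 anchor (chr7:60002278-60006617) that covers the promoter window printed above. Peg3 had none in WT and 8 in KO. A count of 0 in the WT pool allows up to 10.5 per 100000, an exact Poisson bound above the KO values of Snrpn (1.25) and Peg3 (1.99), so no difference was detectable at this depth.

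**Figure D5:**
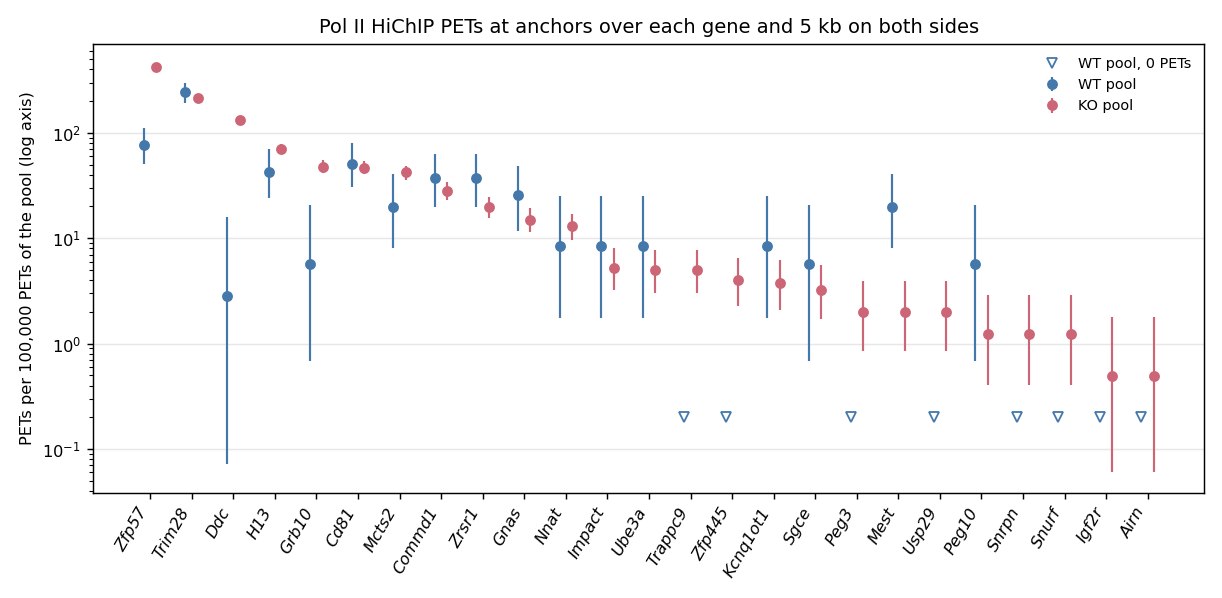
PETs per 100000 PETs of each pool (log axis) at anchors over each member and 5 kb on both sides, for the 25 members with an anchor in at least 1 pool, ordered by the KO value. PETs within a single anchor are included. Bars are exact Poisson 95% intervals for counting error only, and open triangles mark 0 PETs in WT. Zfp57, Ddc and Grb10 stand higher in KO and Mest lower, while most other intervals overlap.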

How the data were processed

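Gene counts of 4 RNA libraries were deposited by the authors as raw HTSeq counts per Ensembl gene. Per the submitters' processing notes HiC-Pro 2.11.4, DESeq2 1.18.1, HISAT2 2.1.0 and HTSeq 0.9.1 were used, with mm10. The deposited contact lists hold counts of PETs per anchor pair, 1 pooled list per genotype. The sources used here give neither how anchors were called nor the strand setting. Totals of 8287497 to 9762190 gene counts made up 34.5% to 36.0% of each library's records. The rest (no gene, ambiguous, not unique, low quality or not aligned) was left out of library sizes and tests.

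Lists, like members, were chosen with earlier results of these data known. All genes were fitted together with edgeR 4.0.16 (R 4.3.3, filterByExpr, TMM, quasi-likelihood, genotype as the only term, 2 residual degrees of freedom), with Benjamini-Hochberg adjustment over 15517 genes at 0.05. CPM use TMM library sizes. The fit was tested on simulated data. Alternatives were RLE factors, library totals, DESeq2 1.42.0, limma 3.58.1 voom, 2 other filters and leaving out each library. KO columns carry letters in place of the labels' replicate numbers and were used as KO libraries only. By the rule for named genes, full values are given for called members, for keepers and for members with an unadjusted p under 0.05, for called genes of the 2 lists of other imprinted genes and maintenance partners, and contacts for the 10 members with most KO PETs. RefSeq promoter windows matched 31 members, and none was found for H19, Peg10, Sgce, Rtl1, Impact, Peg13 and Trappc9.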

Additional observations from a re-analysis of the deposited data

How the results depend on the processing

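Of 310 fold changes of single members under alternatives, 276 kept their direction and side of the threshold, 8 lost the call, 8 gained it and 18 changed sign. With no expression filter the members called higher were 0 and those called lower 0, where 1 of 27254 genes was called in each direction. DESeq2 added Peg3 to the higher members, 5 in all, and called 616 of 16702 genes higher. With single libraries left out, calls of Peg3, Phlda2, Ube3a, Igf2r and Zfp445 appeared in some fits. Snrpn and Cd81 were not called without KO F. The number of genes called over the whole table also moved in these fits. Sign changes came in 9 uncalled members whose log2 fold changes ranged, with libraries left out, from -0.47 to 0.50 for Igf2, -0.14 to 0.025 for Sgce, -0.47 to 3.35 for Zim1, -0.27 to 0.35 for Kcnq1ot1, -0.69 to 1.00 for Nnat, -0.42 to 0.080 for Impact, -0.28 to 0.015 for Mcts2, -0.21 to 0.16 for H13 and -0.065 to 0.91 for Zfp445. Nnat was 0.15 under limma voom and H13 0.0059 with library totals. The cause of these changes was not tested. Where a left-out library leaves 1 in a genotype, it is assumed to vary like the other genotype. Members with a contact at a start were 7 in WT with at least 2 PETs a pair, 4 with at least 3, and 12 in KO with at least 3. The shares over all genes at these limits were not counted. No paired analysis was possible because the KO columns carry letters and no replicate numbers. The 2 libraries per genotype and the 35189 PETs of the WT pool limit these values.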
